A study of Homo sapiens with 6 samples.

Results

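Metallothioneins, the zinc-responsive transcription factor MTF1 and the zinc transporters SLC30A1, SLC30A5, SLC39A10 and SLC39A14 were followed in A549 cells carrying extra miR-19a. A549 is an established human lung adenocarcinoma line. There were 3 samples of A549 cells given miR-19a and 3 samples of A549 cells given miR-NC, a control microRNA. Both were transfected at 25 nM with a lipid reagent and harvested at 24 h, and poly(A)-selected RNA was sequenced as read pairs of 150 nt. The labels do not say which arm of miR-19a was given, or whether the 3 samples of a group came from separate cultures, so the p-values below speak only for the variation among these 6 samples, and that variation may be technical. The 10 genes were found by symbol among 57905 gene identifiers (MT1A, MT1E, MT1F, MT1X, MT2A, MTF1, SLC30A1, SLC30A5, SLC39A10 and SLC39A14), and each matched 1 row. The set was chosen because MT1A fell in this same contrast, so the differences of the 10 genes are given as a description and without p-values.

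Metallothioneins are small cysteine-rich proteins of the cytosol that bind zinc and copper. MTF1 is activated by zinc, binds metal response elements in promoters and drives transcription of metallothionein genes and of SLC30A1. SLC30 proteins move zinc out of the cytosol, either across the cell surface or into organelles, and SLC39 proteins move it into the cytosol. In lung epithelium the metallothioneins are also known as genes induced by glucocorticoids and by oxidants.

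The microRNA and the sites for it are shown first, because they tell which of the 10 transcripts could pair with its seed. The capitals mark the seed, bases 2 to 8 of the mature RefSeq sequence (GRCh38.p14, chromosome 13, plus strand), which miR-19a-3p, the arm searched for here, shares with miR-19b-3p.
miR-19a-3p: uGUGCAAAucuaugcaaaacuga
The 3′ UTRs were read from 1 GENCODE v29 transcript per gene (GRCh38), the one with the longest coding sequence, and were searched for TTGCAC with its flanking bases. MTF1 carried a 7-base match to the whole seed (TTTGCAC) at chr1:37810239-37810245 and a 6-base match at chr1:37814771-37814776, both on the minus strand. SLC39A10 carried a 6-base match at chr2:195735141-195735146 on the plus strand. Capitals mark the matched bases.
MTF1, 7-base match: aaaaccttTTTGCACcaaaaccc
MTF1, 6-base match: cccatcgcTTGCACtggggtct
SLC39A10, 6-base match: tcagtggcTTGCACtacttaca
The 3′ UTRs of MT1A, MT1E, MT1F, MT1X, MT2A, SLC30A1, SLC30A5 and SLC39A14 held no TTGCAC. Of the 5 annotated MT2A transcripts, 1 held a 7-base match, at chr16:56608528-56608534, before its 3′ UTR. That place is upstream of the RefSeq start of MT2A, in the promoter. The match overlaps a metal response element core, TGCACTC, at position -54 from that start. A transcript that begins at the RefSeq start lacks the match, and which start these cells used was not tested. MT1A, the gene with the largest difference among the 10, has 1 annotated transcript, and it held no match anywhere.

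The libraries held between 15699037 and 17957932 counts. The chi-square per gene between the counts of a pair of libraries was 1.59 to 4.15 within a group, above the sampling noise of 1, and 26.6 to 30.2 between groups. A gene was tested when its FPKM averaged 1 or more over the 6 libraries. Of the 12452 such genes, 24.9% passed the edgeR quasi-likelihood test higher in miR-19a cells and 23.5% passed it lower, at an adjusted p of 0.05 (Benjamini-Hochberg). The median log2 fold change over all tested genes was -0.004. Of 5 epithelial markers, KRT8, KRT18 and KRT19, keratins of simple epithelia, were abundant and rose, CDH1 fell, and EPCAM was low, at 1.94 ± 0.451 CPM in miR-19a cells and 1.53 ± 0.511 CPM in miR-NC cells (counts per 1 M reads, SD, n = 3 each). The 5 summed to 5500 to 5680 CPM in miR-19a libraries and 4340 to 4540 CPM in miR-NC libraries, and their part in the results below was not tested. The 7 fibroblast markers summed to 27.5 to 32.9 CPM in miR-19a libraries and 13.4 to 16 CPM in miR-NC libraries, nearly all of it COL1A1 and THY1, with DCN, LUM and COL1A2 at or near 0. COL1A1 rose to 25.6 ± 1.78 CPM in miR-19a cells, against 8.93 ± 1.02 CPM in miR-NC cells. THY1 was too low to be tested and lay the other way, at 3.68 ± 0.595 CPM in miR-19a cells and 5.30 ± 0.365 CPM in miR-NC cells, without overlap. The 3 blood markers summed to at most 0.282 CPM in miR-19a libraries and 0.181 CPM in miR-NC libraries.

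Of the 10 genes, 9 passed the filter on low values, which reads the mean over all 6 libraries. MT1E had no count in any library and was not tested. Of the 9, 4 passed the threshold higher in miR-19a cells (SLC30A1, SLC30A5, SLC39A10 and SLC39A14) and 2 passed it lower (MT1A and MT2A), where 48.4% of all tested genes passed in either direction. The 3 miR-19a libraries lay entirely above the 3 miR-NC libraries for 3 genes and entirely below for 2, against 27.6% and 26.4% of all tested genes (54.0% in either direction). The median log2 fold change of the 9 was -0.06. Nothing is read from these counts, since the genes were chosen on this contrast.

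**Figure D1:**
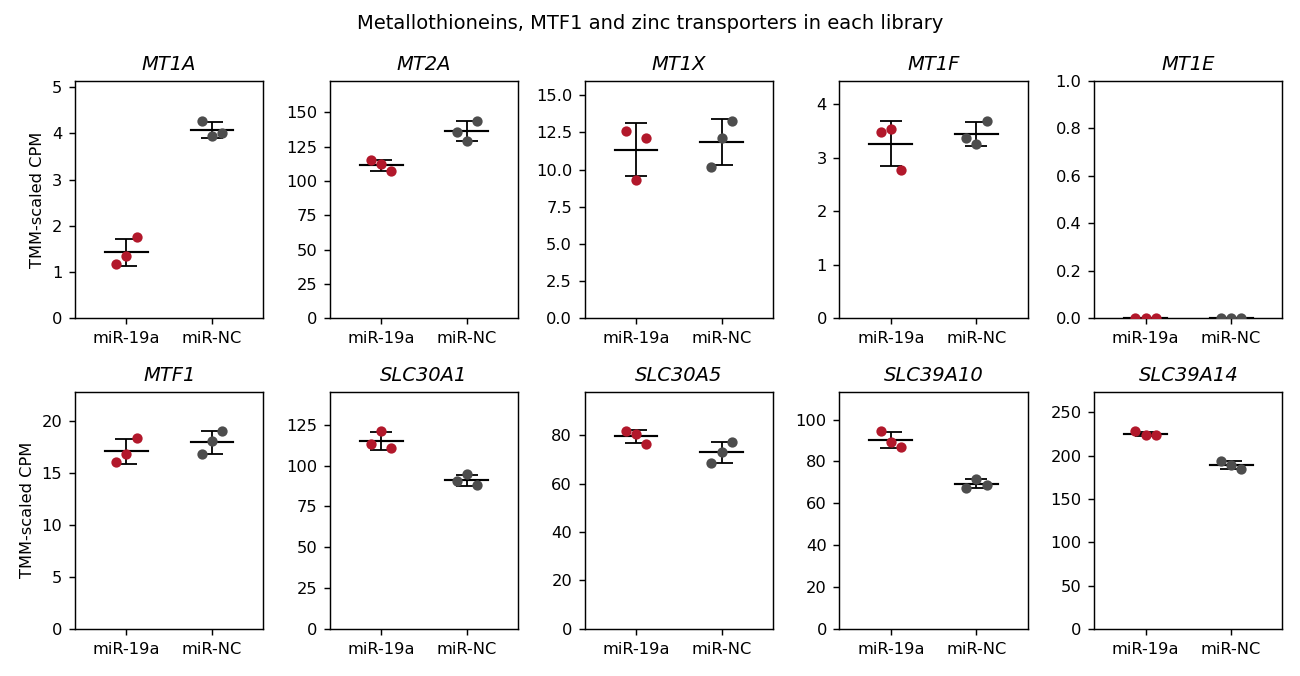
TMM-scaled CPM of each of the 10 genes in each library, linear axes from 0, miR-19a on the left and miR-NC on the right of each panel, with the mean as a bar and 1 SD as whiskers. MT1A and MT2A libraries with miR-19a all sit below the miR-NC libraries, those of SLC30A1, SLC39A10 and SLC39A14 all sit above, the groups overlap for MT1F, MT1X, MTF1 and SLC30A5, and MT1E is at 0 throughout.

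MT1A, a metallothionein of the cluster on chromosome 16 (ENSG00000205362, chr16:56638666-56640087, plus strand), had 19, 23 and 31 counts in miR-19a libraries and 71, 63 and 63 counts in miR-NC libraries. Every miR-19a library was below every miR-NC library, with a wide gap between the groups. In bulk RNA, less RNA per cell and fewer cells expressing a gene cannot be told apart. In TMM-scaled units it averaged 1.43 ± 0.292 CPM in miR-19a cells and 4.07 ± 0.18 CPM in miR-NC cells (SD, n = 3 each), a log2 fold change of -1.50 with an SE of 0.23. The level was low: the summed 73 and 197 counts gave a ratio of 0.353 after scaling, with an exact 95% interval of 0.266 to 0.464 that covers counting error only. Counting alone would give the 3 miR-19a libraries a coefficient of variation of 20.3%, and the observed one was 20.4%.

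MT2A, the most abundant metallothionein of these cells (ENSG00000125148, chr16:56608199-56609497, plus strand), had 1844, 1905 and 1888 counts in miR-19a libraries and 2253, 2061 and 2271 counts in miR-NC libraries. All 3 miR-19a libraries were again the lower ones. It averaged 111 ± 4.1 CPM in miR-19a cells and 136 ± 7.85 CPM in miR-NC cells, and its log2 fold change of -0.29 (SE 0.045) was a far smaller step than that of MT1A, on a far deeper count. Leaving out each library in turn gave log2 fold changes from -0.33 to -0.25.

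MT1X and MT1F, further metallothioneins of the same cluster, did not pass the threshold. MT1X (ENSG00000187193, chr16:56682424-56684196, plus strand) had 202, 158 and 215 counts in miR-19a libraries and 169, 193 and 209 counts in miR-NC libraries. MT1F (ENSG00000198417, chr16:56657694-56660698, plus strand) had 56, 60 and 49 counts in miR-19a libraries and 56, 52 and 58 counts in miR-NC libraries. Both sets of libraries were interleaved. The log2 fold changes were -0.06 (SE 0.11) for MT1X and -0.08 (SE 0.19) for MT1F, and either sign was reached when 1 library was left out (from -0.16 to 0.06 for MT1X and from -0.14 to 0.03 for MT1F). The exact 95% counting intervals of their ratios, miR-19a over miR-NC, ran from 0.852 to 1.08 for MT1X and from 0.758 to 1.18 for MT1F. MT1X libraries varied by more than counting gives: the coefficient of variation was 15.6% in miR-19a cells and 13.2% in miR-NC cells, against 7.22% and 7.25% from counting.

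MT1E (ENSG00000169715, chr16:56625475-56627112, plus strand) was listed at 0 in all 6 libraries. A count of 0 allows up to 3 counts per library, which is at most 0.186 CPM in the miR-19a libraries and at most 0.191 CPM in the miR-NC libraries. Among 13 other metallothionein genes and pseudogenes, 12 had a row and 6 had any count. MT1DP, a pseudogene, was the only tested one, with 3, 6 and 7 counts in miR-19a libraries and 5, 0 and 5 counts in miR-NC libraries (log2 fold change 0.59, SE 0.71, edgeR adjusted p = 0.522). The remaining ones with a count, MT1B, MT1HL1, MT3, MT1CP and MT1XP1, stayed at or below a mean of 0.0196 CPM in miR-19a cells and 0.102 CPM in miR-NC cells. MT1G, MT1H, MT1M, MT4, MT1L and MT1JP were listed at 0 throughout.

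The 20 rows that name a metallothionein or one of its pseudogenes were also summed in each library, since their reads can be hard to tell apart. The sum was 134 ± 4.51 CPM in miR-19a cells and 164 ± 9.29 CPM in miR-NC cells, a log2 fold change of -0.30 (SE 0.043) that is close to that of MT2A alone. MT2A held 83.2% ± 0.635 of the reads in miR-19a cells and 83.2% ± 1.03 in miR-NC cells. Within a pool that was lower as a whole, the share of MT1A was lower still, at 1.07% ± 0.259 in miR-19a cells and 2.49% ± 0.181 in miR-NC cells, with no overlap between the groups. MT1X held 8.49% ± 1.33 in miR-19a cells and 7.21% ± 0.775 in miR-NC cells, with overlapping libraries. MT1F held 2.44% ± 0.255 in miR-19a cells and 2.10% ± 0.02 in miR-NC cells, narrowly without overlap (lowest 2.15% in miR-19a cells, highest 2.12% in miR-NC cells). MT2P1, a processed pseudogene of MT2A singled out after its values were seen, held 4.50% ± 0.69 in miR-19a cells and 4.79% ± 0.492 in miR-NC cells. Its own log2 fold change was -0.38 (SE 0.14, edgeR adjusted p = 0.0209), with overlapping groups. It no longer passed when miR-19a replicate 3 (-0.25), miR-NC replicate 2 (-0.35) or miR-NC replicate 3 (-0.32) was left out.

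**Figure D2:**
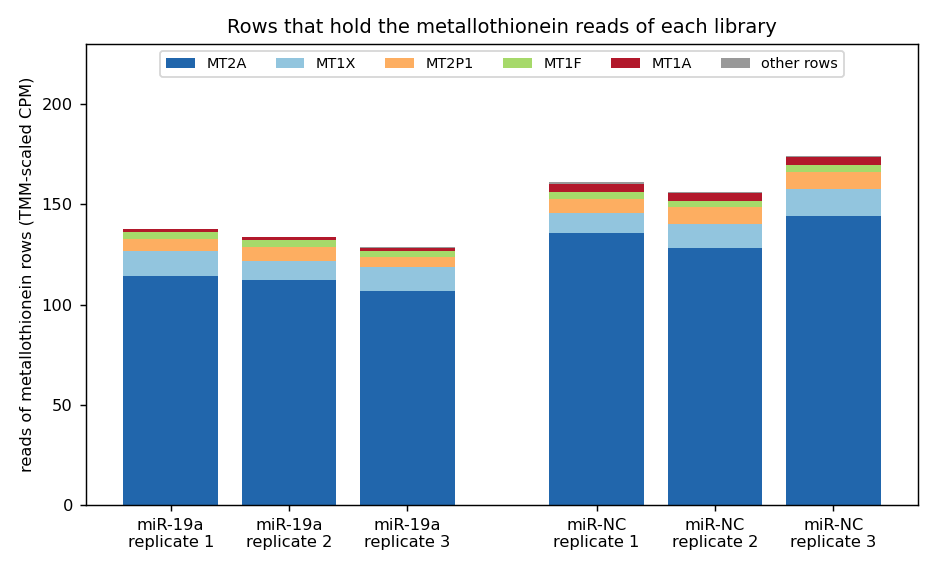
Stacked bars of the TMM-scaled CPM (linear axis from 0) counted on metallothionein rows in each library, the 3 miR-19a libraries on the left and the 3 miR-NC libraries on the right. Totals run from 129 to 138 CPM with miR-19a and from 156 to 174 CPM with miR-NC, MT2A fills most of every bar, and the MT1A segment is thinner in each miR-19a library.

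How far reads of one metallothionein could be counted on another was read from the annotation. Over 186 coding bases the 5 genes of the set were 88.7% (MT1F and MT1X) to 94.6% (MT1A and MT1E) identical. No stretch of 100 bases of a transcript of MT1A, MT1E, MT1F or MT2A was found in the transcripts of another gene, whereas 19.1% of those of MT1X were found in AC026461.1, a transcript that overlaps MT1X on the same strand and had no count in any library. At 50 bases the shared portion was 5.76% for MT1A, 7.52% for MT2A, 3.59% for MT1F and 45.1% for MT1X. How reads with several matches were counted is not known here, so values of these rows are uncertain to the extent that such reads were shared out.

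MTF1 itself (ENSG00000188786, chr1:37809567-37859620, minus strand) had 258, 285 and 325 counts in miR-19a libraries and 279, 290 and 298 counts in miR-NC libraries. The groups overlapped and the gene did not pass, at 17.1 ± 1.18 CPM in miR-19a cells and 18 ± 1.08 CPM in miR-NC cells (log2 fold change -0.07, SE 0.088). It was the one gene of the set with a 7-base match in its 3′ UTR. Among the 767 tested genes whose strongest site was of that kind the median log2 fold change was -0.06, with 24.1% higher and 37.0% lower, against a median of -0.15 and 48.4% lower among 630 genes with an 8-base site and a median of 0.03 and 21.4% lower among 7497 genes with none.

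SLC30A1, the exporter which carries zinc out across the plasma membrane (ENSG00000170385, chr1:211571568-211578742, minus strand), had 1812, 2059 and 1971 counts in miR-19a libraries and 1500, 1516 and 1387 counts in miR-NC libraries. Every miR-19a library was above every miR-NC library. It averaged 115 ± 5.41 CPM in miR-19a cells and 91.1 ± 3.31 CPM in miR-NC cells, a log2 fold change of 0.34 (SE 0.046). SLC30A1 and MT2A are both textbook targets of MTF1, and here one rose while the other fell.

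SLC30A5, which loads zinc into the early secretory pathway (ENSG00000145740, chr5:69093646-69131069, plus strand), had 1312, 1363 and 1355 counts in miR-19a libraries and 1134, 1172 and 1213 counts in miR-NC libraries. After scaling the groups overlapped, because miR-NC replicate 3 reached 77.1 CPM and miR-19a replicate 3 had 76.5 CPM. The means were 79.5 ± 2.61 CPM in miR-19a cells and 72.9 ± 4.42 CPM in miR-NC cells, a log2 fold change of 0.12 (SE 0.051). This was the smallest difference of the set to pass, and it no longer passed when miR-19a replicate 1 (0.11), miR-19a replicate 2 (0.11) or miR-NC replicate 1 (0.08) was left out, nor with DESeq2, library totals alone or limma on FPKM. An antisense gene, AC010273.1, overlaps 17958 bases of it, and whether counting used strand is not known here. At most 2 counts fell on that row in a miR-19a library and at most 9 in a miR-NC library.

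Both importers of the set rose. SLC39A10, an importer of the plasma membrane (ENSG00000196950, chr2:195575977-195737702, plus strand), had 1519, 1517 and 1537 counts in miR-19a libraries and 1120, 1149 and 1080 counts in miR-NC libraries. The groups were well separated, at 90.2 ± 3.87 CPM in miR-19a cells and 69.3 ± 2.22 CPM in miR-NC cells, and its log2 fold change of 0.38 (SE 0.050) was the highest of the 9, in a gene whose 3′ UTR holds the 6-base match shown above. SLC39A14, which imports zinc, iron and manganese (ENSG00000104635, chr8:22367249-22434129, plus strand), had 3672, 3801 and 3974 counts in miR-19a libraries and 3220, 3025 and 2898 counts in miR-NC libraries. It was the most tightly measured gene of the set, at 226 ± 2.37 CPM in miR-19a cells and 189 ± 4.84 CPM in miR-NC cells, a log2 fold change of 0.25 (SE 0.039) with no overlap between groups.

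On the length-scaled axis the order of the genes was set by the deposited FPKM (fragments scaled for gene length and library total). In miR-19a cells MT2A led at 84.4 ± 3.11 FPKM, followed by SLC39A14 at 32.0 ± 0.312, SLC30A1 at 20.7 ± 0.991, SLC30A5 at 13.6 ± 0.444 and SLC39A10 at 12.9 ± 0.548 FPKM. MT1X at 6.30 ± 0.98, MT1A at 3.56 ± 0.727, MTF1 at 2.10 ± 0.147 and MT1F at 1.70 ± 0.229 FPKM came below them. Only SLC30A5 and SLC39A10 were neighbours whose libraries overlapped. In miR-NC cells the order was the same at the top, with MT2A at 105 ± 6.5 and SLC39A14 at 27.2 ± 0.64 FPKM. There MT1A stood higher, at 10.3 ± 0.467 FPKM, level with SLC39A10 at 9.99 ± 0.292 FPKM and above MT1X at 6.66 ± 0.898 FPKM. MT1A was the only one of the 10 whose place against the others differed between the groups. This order rests on lengths that differ in kind. The FPKM of MT2A implied a length of 1299 bases, the span of the whole gene, that of MT1X implied 1773 bases, likewise its span, and that of MT1A implied 396 bases, its spliced transcript. Per kilobase of one annotated transcript, MT1A stood at 3.61 CPM in miR-19a cells and 10.3 CPM in miR-NC cells. On that scale MT2A stood at 191 CPM in miR-19a cells and 234 CPM in miR-NC cells, and MT1X at 25.1 CPM in miR-19a cells and 26.2 CPM in miR-NC cells. MT1X was then above MT1A in both groups, and MT1A was below MT1F, at 4.72 CPM, in miR-19a cells and above it, at 4.99 CPM, in miR-NC cells. The rank of MT1A among the metallothioneins therefore depends on the length used, whereas its own difference between groups does not.

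To see how the 4 transporters sit in their families, the 20 other SLC30 and SLC39 genes were listed by name. Of these 12 were tested, 1 rose and 1 fell, with a median log2 fold change of 0.07 and a range from -0.24 to 0.23. That is 16.7% passing, against 48.4% of all tested genes. The 4 transporters of the set were chosen with earlier results of these data known, so nothing is read from their contrast with the rest. SLC39A1, a ubiquitous plasma membrane importer, rose to 198 ± 3.15 CPM in miR-19a cells, against 169 ± 1.29 CPM in miR-NC cells (log2 fold change 0.23, SE 0.040, edgeR adjusted p = 1.27e-06). SLC39A4, the importer whose loss causes acrodermatitis enteropathica, fell to 25.2 ± 0.979 CPM in miR-19a cells, against 29.7 ± 2.6 CPM in miR-NC cells (log2 fold change -0.24, SE 0.073, edgeR adjusted p = 0.00522). Without miR-NC replicate 3 the log2 fold change of SLC39A4 was -0.17 and it did not pass. The 10 others tested did not pass in the fit of all 6 libraries. SLC30A9 passed without miR-19a replicate 3 (0.17) and SLC39A8 passed without miR-NC replicate 2 (0.13), which makes 2 that rose in each of those fits.

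SLC30A7, an exporter into the Golgi, carried the most sites of any gene examined in the zinc families, 2 of 8 bases, which add an A after the seed match, and 2 of 7 bases in its 3′ UTR. The 8-base sites, at chr1:100976312-100976319 and chr1:100980629-100980636 on the plus strand, are shown because the gene did not pass the test. Capitals mark the matched bases.
SLC30A7, upstream 8-base site: gtttaggcTTTGCACAaatacaat
SLC30A7, downstream 8-base site: ttggcattTTTGCACAaataaatg
SLC30A7 averaged 16.9 ± 2.04 CPM in miR-19a cells and 15.4 ± 1.91 CPM in miR-NC cells, with overlapping libraries (log2 fold change 0.13, SE 0.096, edgeR adjusted p = 0.264).

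**Figure D3:**
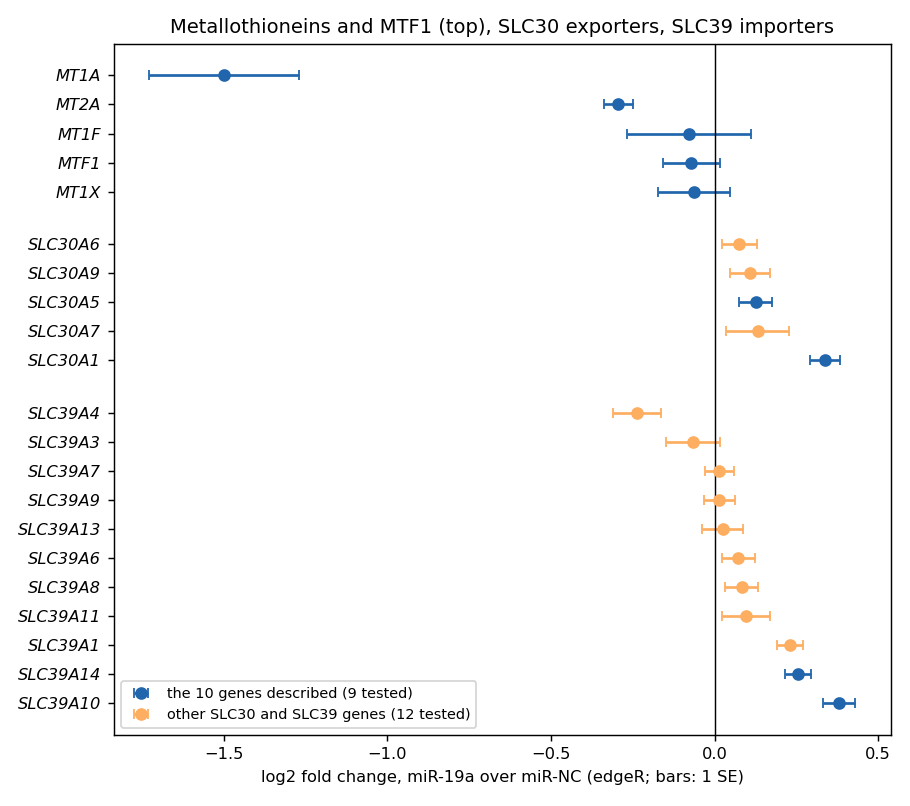
log2 fold changes, miR-19a over miR-NC, with bars of 1 SE from edgeR, for the 9 tested genes of the set (blue) and the 12 other tested SLC30 and SLC39 genes (orange), on a linear log2 axis. MT1A lies alone at -1.50, MT2A at -0.29 and SLC39A4 at -0.24 lie left of 0, and SLC39A10, SLC30A1, SLC39A14 and SLC39A1 lie furthest to the right, at 0.38, 0.34, 0.25 and 0.23.

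The promoters of MT2A and SLC30A1 are shown because both genes are known to be driven by MTF1 and they moved in opposite directions. Each window spans 250 bases before to 50 bases after the RefSeq start (GRCh38.p14), and was searched for the core of the metal response element, TGCACNC or TGCGCNC, on both strands. The windows are chr16:56608334-56608633 on the plus strand for MT2A and chr1:211579112-211579411 on the minus strand for SLC30A1. The RefSeq starts differ from the GENCODE v29 gene bounds given above. The whole SLC30A1 window lies upstream of its GENCODE gene, whose 5′ end is chr1:211578742. That of MT2A lies inside its GENCODE gene, which begins at chr16:56608199. Which starts these cells used was not tested. Capitals mark matches, as read on the printed strand.
MT2A promoter: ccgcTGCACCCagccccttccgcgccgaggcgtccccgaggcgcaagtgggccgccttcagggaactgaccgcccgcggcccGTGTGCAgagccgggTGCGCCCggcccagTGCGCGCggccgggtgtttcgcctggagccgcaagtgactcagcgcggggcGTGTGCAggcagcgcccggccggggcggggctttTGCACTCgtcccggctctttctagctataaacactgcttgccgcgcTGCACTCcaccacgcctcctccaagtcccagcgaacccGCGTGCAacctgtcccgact
SLC30A1 promoter: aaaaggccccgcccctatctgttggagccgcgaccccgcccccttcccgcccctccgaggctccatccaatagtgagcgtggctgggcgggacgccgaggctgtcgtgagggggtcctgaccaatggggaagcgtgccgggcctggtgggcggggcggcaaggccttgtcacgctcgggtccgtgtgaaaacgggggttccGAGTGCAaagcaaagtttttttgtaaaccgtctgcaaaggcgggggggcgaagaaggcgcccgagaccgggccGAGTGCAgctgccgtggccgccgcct
The MT2A window held 8 matches, a number reached by 0.0199% of 35116 RefSeq windows of the same length. The MT1X window, at chr16:56682220-56682519, held 4 (0.601% of windows hold as many), and that of SLC30A1 held 2 (8.60%). The windows of MTF1 and SLC30A5 held none, and of the 2 windows of SLC39A10 1 held a single match (29.6% of all windows hold at least 1). A match says only that these letters are in the window. MT1A, MT1E, MT1F and SLC39A14 had no entry.

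Genes of the responses that also reach metallothioneins were read from 2 lists. Of 11 tested genes of the metal and oxidative stress list, 4 rose and 4 fell, with a median of -0.02. That is 72.7% passing, against 48.4% of all tested genes, and the excess was not tested. HMOX1, the inducible haem oxygenase, fell to 146 ± 5.3 CPM in miR-19a cells, against 260 ± 4.07 CPM in miR-NC cells (log2 fold change -0.83, SE 0.040, edgeR adjusted p = 4.26e-28). SLC7A11, the cystine importer, and NQO1, a quinone reductase, fell by 0.75 and 0.35 on the log2 scale. SRXN1, a sulfiredoxin, TXNRD1, a thioredoxin reductase, and HSPA1A, a heat-inducible chaperone, rose, with log2 fold changes of 0.49, 0.33 and 0.22. The list therefore held differences in both directions. Of 8 tested genes of the glucocorticoid list, 3 rose and 2 fell (62.5% passing, against the same 48.4%, median 0.04). ANGPTL4, a lipase inhibitor, TSC22D3, the glucocorticoid-induced leucine zipper, and KLF9, a transcription factor, rose with log2 fold changes of 1.27, 1.14 and 0.60. FKBP5, a co-chaperone of the glucocorticoid receptor, fell with a log2 fold change of -0.27, and SGK1, a kinase, was at -0.13 with a call that was lost in each of the 6 fits that left out a library.

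Handling of other metals was read in the same way. Of 8 tested copper genes, 5 rose and 2 fell, with a median log2 fold change of 0.17. That is 87.5% passing, against 48.4% of all tested genes (24.9% higher and 23.5% lower). The list is short and the excess was not tested. ATP7B, a copper-exporting ATPase, SLC31A1, the main copper importer, and SOD1, the copper-zinc superoxide dismutase, rose with log2 fold changes of 0.39, 0.24 and 0.18. SLC31A2, a relative of that importer with an 8-base site, fell with a log2 fold change of -0.55, and CCS, the copper chaperone of SOD1, was at -0.19 with a call lost without miR-19a replicate 1 or 2 and without miR-NC replicate 1 or 3. Of 7 tested iron genes, 3 rose and 2 fell (71.4% passing, likewise not tested against the 48.4%, median -0.03). The rises were in the plasma membrane and endosomal transport genes SLC40A1, the iron exporter, SLC11A2, the divalent metal importer, and TFRC, the transferrin receptor, with log2 fold changes of 0.51, 0.43 and 0.39. ACO1, the iron-regulatory aconitase, fell with a log2 fold change of -0.27. FTL, the ferritin light chain, was at -0.11 with a call lost without miR-19a replicate 1 or 2 and at -0.05 without miR-NC replicate 1. Of the genes named from these 4 lists, SLC7A11, SGK1, SLC31A2 and ACO1 held an 8-base site in the 3′ UTR, and all had negative log2 fold changes. They were named because they passed the test, so nothing is read from this tally. DNAJB1, of the stress list and also with an 8-base site, passed lower (-0.14). IREB2, of the iron list, held an 8-base site and a 7-base match and did not pass (-0.04, groups overlapping). Among the 630 tested genes with an 8-base site, 48.4% fell and 15.6% rose. SRXN1, with a 7-base match, and SLC11A2, with 2 TTGCACA sites, rose. SLC31A1, with 6-base matches only, rose too. The other genes named from the lists held no TTGCAC in the 3′ UTR.

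**Figure D4:**
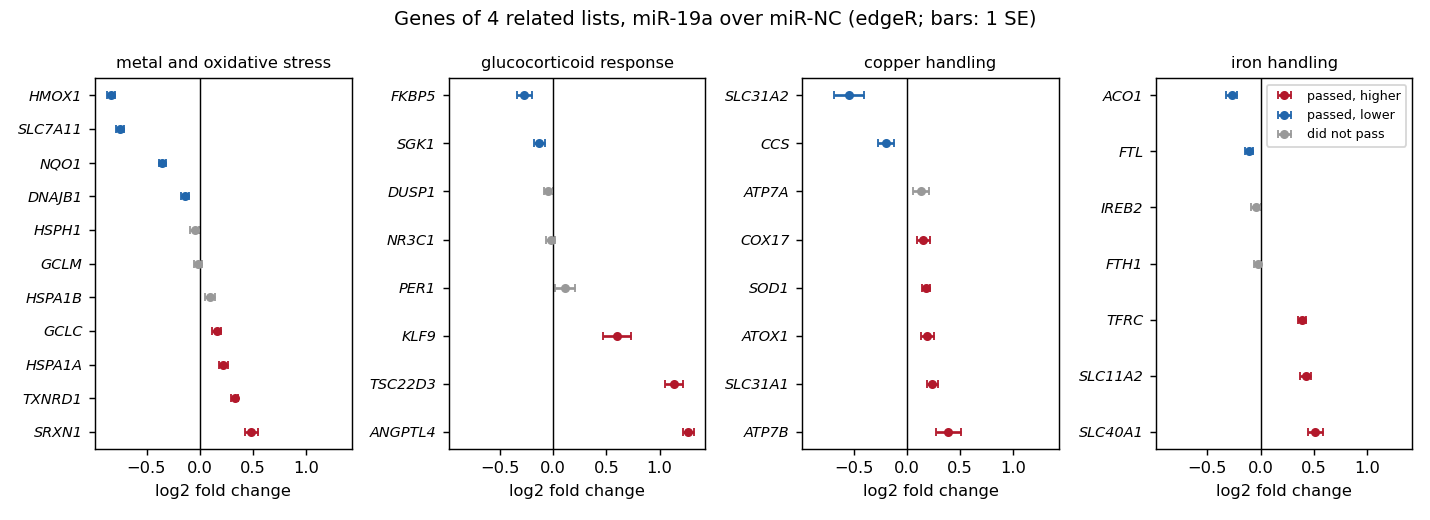
log2 fold changes, miR-19a over miR-NC, with bars of 1 SE from edgeR, of the tested genes of 4 lists on a linear log2 axis, red where the gene passed the threshold higher, blue where it passed lower and grey where it did not pass. Each list holds genes on both sides of 0, from HMOX1 at -0.83 to ANGPTL4 at 1.27.

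The profile of MT1A over the 6 libraries was compared with those of all tested genes outside the lists, as the root mean square distance of log2(CPM + 0.5) after centring on the miR-NC libraries. The 5 closest genes were ALDH3A1 at a distance of 0.0884, MYO15B at 0.0950, ITGB4 at 0.0986, RAB18 at 0.102 and LRATD2 at 0.102. ALDH3A1, an aldehyde dehydrogenase abundant in A549 cells, had 22547, 23745 and 27204 counts in miR-19a libraries and 59689, 56273 and 53936 counts in miR-NC libraries. The log2 fold changes of the 5 ran from -1.29 for RAB18 to -1.20 for LRATD2, all smaller in size than the -1.50 of MT1A. The added 0.5 shrinks the difference of a gene as low as MT1A (1.43 and 4.07 CPM) more than that of an abundant gene. Which genes came out closest therefore depends on that added value, and no other value was tried. This likeness also rests on 6 libraries that differ mainly by group.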

How the data were processed

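The deposited table holds, per the file headers, a count and an FPKM value for each of 57905 gene identifiers in each of the 6 samples. The authors' counts are whole numbers without normalization. The deposited FPKM values correct them for length and depth. Per the submitters' processing notes, bcl2fastq 2.17.1.14 was used. Of the aligner, read counter, build, annotation and strandedness, nothing was given in the sources used here. Identifiers were given symbols from a gene name table or GENCODE v29. The main test, quasi-likelihood in edgeR 4.0.16 under R 4.3.3, was two-sided, took the counts with TMM factors and covered 12452 genes whose FPKM averaged 1 or more, with Benjamini-Hochberg adjustment over all of them. The common biological coefficient of variation came to 0.0352. Standard errors were obtained by dividing the absolute log2 fold change by the root of F. Levels in CPM use the TMM factors, and each mean ± SD covers 3 libraries. The alternatives used DESeq2 1.42.0 and limma 3.58.1 among others. The fitting steps were tested on simulated data. Intervals and floors cover counting error only.

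The 10 genes and all lists were chosen with earlier results of these data known. Named were all 10 genes, other metallothioneins with counts, other zinc transporters past the threshold, at most 3 genes per direction from each further list by adjusted p, and the 5 genes nearest to MT1A. MT2P1, SLC30A7, SLC30A9, SLC39A8, DNAJB1, IREB2 and the marker genes named were singled out beside that rule after their values were seen. Sequences are from RefSeq (GRCh38.p14) and GENCODE v29 (GRCh38). Protein sequences were not used here.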

Additional observations from a re-analysis of the deposited data

How the results depend on the processing

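Over the 9 tested genes and the alternatives run, 129 log2 fold changes kept their direction or their place below the threshold. A further 7 lost their call (all SLC30A5, described above), 2 gained one (MT1F and MT1X, on the summed row) and none reversed among those called. Summing all metallothionein rows gave 1 value of -0.295 for MT1A, MT1F, MT1X and MT2A alike, which passed. The 129 include this value for MT1A and MT2A. Since MT2A held 83.2% of those reads, it says nothing of how stable MT1A is. MT1A ran from -1.68 to -1.38 with libraries left out in turn. Counts over all genes ran from 4070 (56.1% of 7251), with a mean FPKM of at least 5 required, to 6620 (43.7% of 15159) with edgeR's own filter. The main fit gave 6023 (48.4% of 12452). The lowest count was thus the highest share, and the lowest share was 21.5% of 28934 genes, without a filter. With libraries left out in turn, the other zinc transporters that rose numbered 1 to 2 and those that fell, SLC39A4 alone, 0 to 1. Calls of MT2P1, SGK1 and CCS were lost with DESeq2, those of ATP7B and FTL with limma on FPKM, and those of SGK1 and CCS without the filter. Replicate numbers are shared by the groups, but deviations of same-numbered libraries correlated at -0.00442, 0.00940 and -0.0369. No shared variation by number was thus seen. These values cannot tell whether same-numbered libraries were handled together. A replicate block gave 5986 called genes. The median log2 fold change of all genes lay between -0.0205 and -0.0045 under the scalings run. The depth limits MT1A, MT1F and MT1E most. Summing MT2A and MT2P1 was chosen after seeing the data and gave -0.299.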
